A study of Homo sapiens with 6 samples.

Results

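Late-registered microRNA probes were examined on 6 one-colour arrays of Huh7, a hepatocyte-like line established from a human liver carcinoma. They are the probes of the deposited value table whose miRBase mature-microRNA accession lies between MIMAT0014975 and MIMAT0016927, a stretch of numbers that holds the miR-3100 and the miR-4250 to miR-4330 series. The rule used no measured value and found 195 of the 1212 probes (16.1%), each with a single accession, and 153 of the 195 carried a value on all 6 arrays. The first group was Huh7 exposed to 10 mM metformin, a biguanide diabetes drug, over 72 h (3 arrays). The other was Huh7 without metformin, which the labels call control (3 arrays). Both groups are the same established line grown in culture, and no label states that arrays of a group stem from separate cultures. Every p-value and interval therefore refers to the spread between arrays, which may be technical. Tumour tissue named in the design text was not analysed here.

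MicroRNAs are short RNAs that guide Argonaute proteins to messenger RNAs, mostly through pairing of the seed, bases 2 to 8, and lower the output of the messages they pair with. miRBase numbers them in order of registration, so high numbers mark entries added once deep sequencing had begun to list rare small RNAs. Many entries of that period rest on few reads, and some of them were later withdrawn as fragments of other RNAs. Metformin inhibits mitochondrial respiration and activates the energy sensor AMPK in liver cells. The series compared microRNA levels with and without the drug.

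What such entries look like was read from RefSeq mature sequences (GRCh38.p14), which are listed by microRNA name and hold 0 miRBase accessions. No late-registered probe could therefore be matched to a name or a sequence (0 of 195), and probes are given by accession. The same gap left the liver, blood, muscle, neural, endothelial and stromal marker microRNAs unmatched, so the identity of Huh7 was not checked against them. The sequences described were chosen by the number in the name and not by accession, so they need not be those of the late-registered probes. RefSeq listed 109 mature sequences named miR-3115 to miR-3199, with a median length of 22 bases and a median G plus C content of 54.5%. It listed 73 named miR-4251 to miR-4330, with a median length of 18 bases and a median G plus C content of 58.8%. Sequences of at most 18 bases made up 6 of the 109 and 49 of the 73, against 0 of 298 sequences with names numbered up to 250, whose median G plus C content was 45.5%.

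The seeds of both series were compared with those of the microRNAs numbered up to 250, and with no later ones. A total of 7 of the 182 sequences shared all bases 2 to 8 with one of them. Of these, 5 are printed beside an older partner, as examples of how a late entry can repeat the targeting end of a long-known family. Not printed are miR-3118, which shares its first 8 bases with miR-134-5p, and miR-3132, which shares the seed of miR-197-5p. Capitals mark the seed.
hsa-miR-4306: uGGAGAGAaaggcagua
hsa-miR-185-5p: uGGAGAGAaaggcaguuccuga
hsa-miR-4295: cAGUGCAAuguuuuccuu
hsa-miR-130b-3p: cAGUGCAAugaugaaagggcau
hsa-miR-4319: uCCCUGAGcaaagccac
hsa-miR-125b-5p: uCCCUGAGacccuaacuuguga
hsa-miR-4262: gACAUUCAgacuaccug
hsa-miR-181a-5p: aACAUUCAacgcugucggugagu
hsa-miR-3129-5p: gCAGUAGUguagagauugguuu
hsa-miR-199a-3p: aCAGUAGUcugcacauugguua
The first 16 bases of miR-4306 (17 bases, chr13:99643123-99643139, plus strand) are those of miR-185-5p. The first 10 bases of miR-4295 (18 bases, chr10:112634180-112634197, plus strand) are those of miR-130b-3p. miR-4319 (chr18:44970140-44970156, minus strand) shares its first 8 bases with miR-125b-5p. miR-4262 (chr2:11836943-11836959, minus strand) and miR-3129-5p (chr2:189133082-189133103, minus strand) share the seed of their partners but not the first base. Whether probes to such pairs shared signal was not tested, because no probe could be assigned to either microRNA.

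The late-registered probes fell into a small bright set and a large dim remainder, as did the probes of the table in general. By geometric mean over the 6 arrays, the 3 brightest probes of all 1038 measured on every array were late-registered. The brightest probe outside the set ranked 4th, with a geometric mean intensity of 10547, close to the 10691 of the 3rd. Intensities are the authors' processed linear values, and a mean level is the geometric mean over the 6 arrays. A probe's brightness also depends on how well it binds its target, so a rank describes the arrays and does not order the microRNAs by amount. After the 3 brightest came a step of 14.5-fold to the next late-registered probe, at rank 26. Only 10 of the 153 had a mean level over 100. Among the 260 brightest probes of the table, 31 were late-registered.

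**Figure D1:**
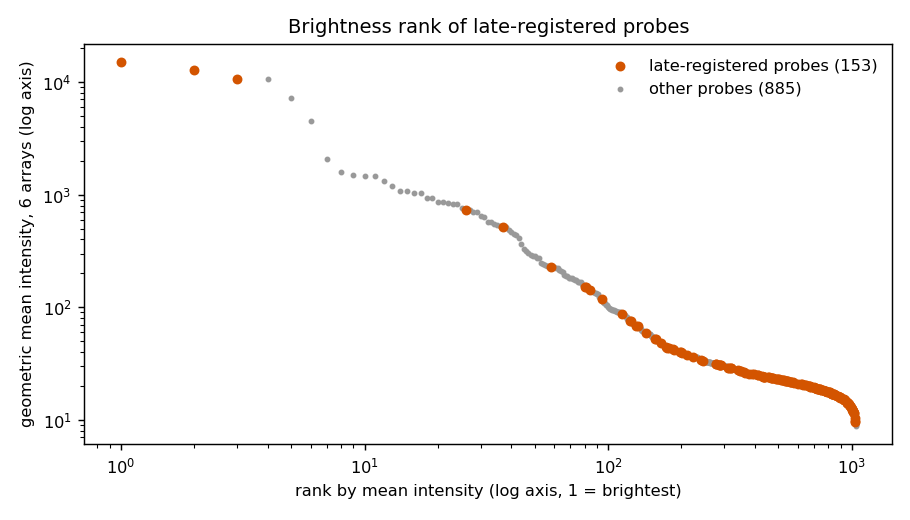
Geometric mean intensity over 6 arrays (log axis) against brightness rank (log axis) for the 153 late-registered probes (orange) and the 885 other probes (grey) with a value on every array. Late-registered probes hold ranks 1 to 3, next appear at rank 26 and, like the other probes, mostly lie at the dim end.

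The brightest probe of the table was MIMAT0015041. Its intensity was 12650, 19416 and 15569 with metformin, against 15960, 13249 and 14160 in control. It ranked first on 5 arrays and second on control replicate 3. The next, MIMAT0016916, read 11663, 14559 and 12083 with metformin and 13347, 11041 and 14374 in control. MIMAT0016915, whose accession is adjacent, read 9827, 12964 and 11123 with metformin, against 9588, 8987 and 12230 in control. It ranked 4th on metformin replicate 1, control replicate 1 and control replicate 2. On the other arrays it ranked 3rd. For all 3 probes the groups overlapped. Together these 3 probes held between 27.4% and 31.9% of the summed intensity of an array, with 29.4% ± 2.29 with metformin and 29.4% ± 0.87 in control (SD, n = 3 each). The other 192 late-registered probes added little, since they held between 6.36% and 7.46% of the sum of an array after the 3 were taken out.

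A second tier lay far below the first. MIMAT0015080 measured 583, 946 and 757 with metformin and 680, 668 and 833 in control. MIMAT0015055 measured 449, 577.3 and 576.7 with metformin, against 523, 439 and 577.0 in control. MIMAT0015052 measured 237, 348 and 208 with metformin, against 236, 178 and 206 in control. In each case metformin replicate 2 was the highest of the 6 arrays, by a small margin for MIMAT0015055, and the groups overlapped. The remaining 4 of the 10 brightest were MIMAT0016907, MIMAT0015072, MIMAT0015082 and MIMAT0016878, with mean levels between 118 and 153. All 10 were above the 75th percentile of the array on all 6 arrays.

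Taken over all their values, the late-registered probes sat low on the arrays. Their median intensity was 21.3 ± 0.77 with metformin and 22.2 ± 1.23 in control (SD, n = 3 each), against 23.8 ± 0.68 with metformin and 23.6 ± 0.40 in control for all other probes. The ratio of their median to the array median lay between 0.897 (metformin replicate 2) and 0.996 (control replicate 2). Between 15.5% and 22.4% of their values on an array were above its 75th percentile, and between 27.1% and 35.3% were below its 25th percentile. If their positions followed those of the whole array both shares would be 25%. Only 20 of the 153 (13.1%) stayed above the 75th percentile on every array, against 168 of the 885 other probes (19.0%). Few stayed below the 25th percentile on every array, 1 of 153 (0.65%) against 7 of 885 (0.79%). These shares compare probes, which are not independent, and are given as a description with no test.

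**Figure D2:**
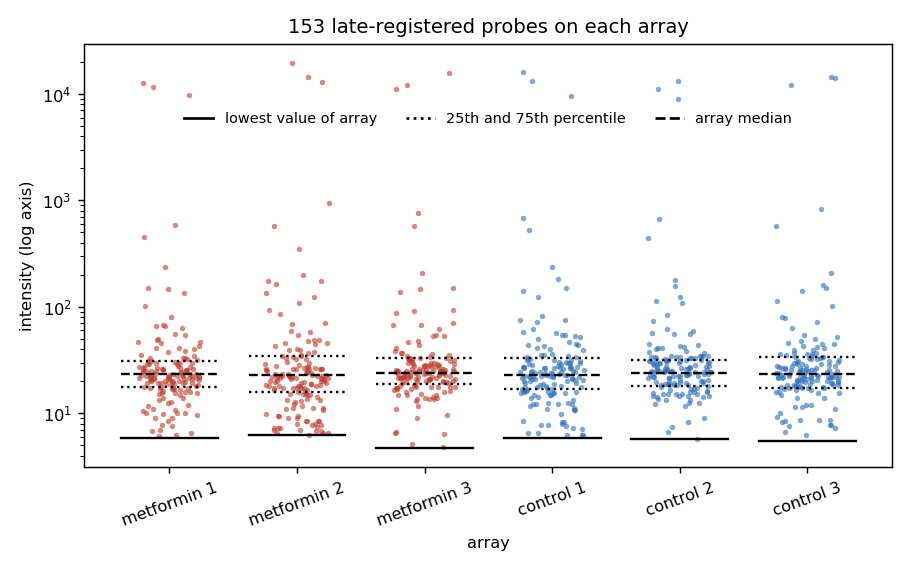
Intensity (log axis) of the 153 late-registered probes with a value on every array, for the 3 metformin arrays (red) and the 3 control arrays (blue), with the lowest value (solid line), quartiles (dotted) and median (dashed) of each array. On every array 3 probes stand between 8987 and 19416 and most of the rest lie around or below the array median.

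The array floor, taken as the lowest value on an array, lay between 4.70 and 6.20. No background level is given in the files, so a value near the floor cannot be called present or absent. The lowest late-registered probe equalled the lowest value of the array on metformin replicate 2, control replicate 2 and control replicate 3. Values under 2 times the floor made up between 5.73% and 25.3% of the late-registered values on an array, with the most on metformin replicate 2, against 2.96% to 16.7% of the values of other probes. The late-registered share was the higher of both on 5 arrays and the lower on control replicate 2 (5.73%, against 9.19%). That share was 15.3% ± 9.59 with metformin and 12.9% ± 6.53 in control (SD, n = 3 each), and the arrays of the groups overlapped. The probe with the lowest mean, MIMAT0015026, read 10.1, 6.20 and 4.80 with metformin and 8.50, 14.4 and 21.5 in control. MIMAT0016854 read 9.60, 9.80 and 5.20 with metformin, against 12.1, 19.9 and 7.20 in control. MIMAT0016853 read 7.60, 6.50 and 21.7 with metformin, against 11.8, 14.5 and 6.70 in control. The values of each of these 3 probes differed by more than 3-fold between arrays, and each lay below the 25th percentile on 5 of the 6 arrays.

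Late-registered probes also had empty cells. Of the 195 late-registered probes, 42 (21.5%) lacked a value on at least 1 array, against 132 of the 1017 others (12.98%). Among the others the share was 5.97% for probes numbered 62 to 773 and 11.8% for 5458 to 13863. It was 15.6% both for 1075 to 4987 and for 17352 to 18447. Metformin replicate 2 held 25 of the 57 empty cells of late-registered probes, and 88 of the 167 of other probes. Without that array the shares were 13.8% (27 of 195) and 6.78% (69 of 1017). The 3 metformin arrays had 7, 25 and 1 empty late-registered cells and the 3 control arrays had 11, 3 and 10, so the groups overlapped. The highest value of any of the 42 was 35.7, and their median value was 14.8. MIMAT0014983 had a single value, 8.70 on metformin replicate 3, whereas 30 probes had 5 values and 11 had 4.

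The late-registered probes were also set against other stretches of the accession numbering, and the earliest entries stood highest. On average over the 6 arrays, 19.2% of late-registered values were above the 75th percentile (range 15.5% to 22.4%). The share was 49.0% for probes numbered 62 to 773 (47.0% to 52.5%), 17.6% for 1075 to 4987 (16.6% to 18.6%), 25.8% for 5458 to 13863 (23.5% to 27.1%), and 21.1% for 17352 to 18447 (18.05% to 24.4%). Values below the 25th percentile averaged 32.0% of late-registered ones, against 14.3% for probes numbered 62 to 773, 25.7% for 1075 to 4987, 22.6% for 5458 to 13863 and 30.2% for 17352 to 18447. For both shares the range of the late-registered probes overlapped those of the probes numbered 1075 to 4987 and 17352 to 18447. Of the 10 brightest probes of the table, 3 were late-registered, 3 were numbered 62 to 773 and 4 were numbered 5458 to 13863.

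**Figure D3:**
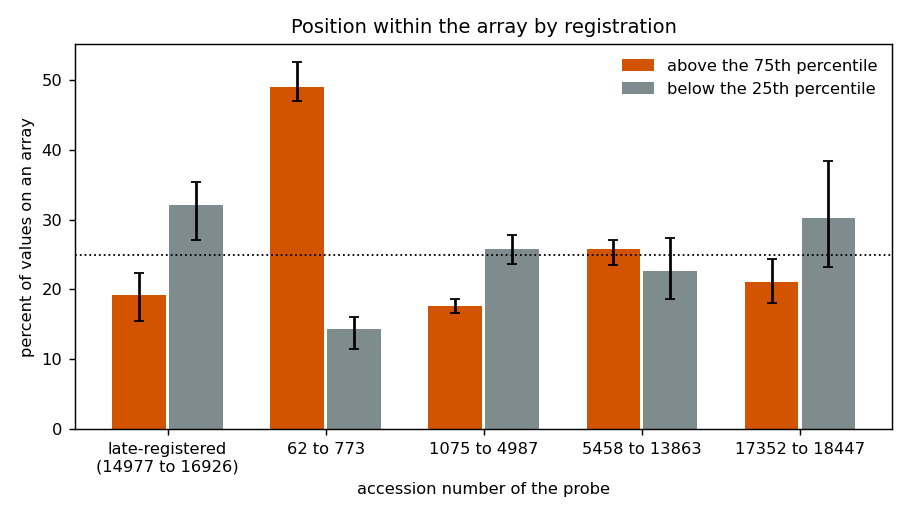
Percent of values above the 75th percentile (orange) and below the 25th percentile (grey) of their array, by accession number; bars are means of 6 arrays, error bars the lowest and highest array, and the dotted line marks 25%. Late-registered probes averaged 19.2% and 32.0%, against 49.0% and 14.3% for those numbered 62 to 773.

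Within the late-registered set both ends of the numbering held bright and dim probes. The 110 probes numbered 14977 to 15090 contributed 6 of the 10 brightest, and the 83 numbered 16844 to 16926 contributed 4. Another 2 probes were numbered 15377 and 15378. Median mean levels were 20.6 over the 79 lower-numbered and 22.9 over the 72 higher-numbered probes with a value on every array. At the edges of the range, the first late-registered probe measured on every array had a mean level of 15.8, against 21.3 for the last probe before it. The last had 27.7, against 21.7 for the first probe after it.

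The agreement between arrays was described by brightness. Over the 31 late-registered probes among the 260 brightest of the table, log2 intensities correlated between pairs of arrays with a median r of 0.99 (15 pairs, 0.981 to 0.997). Over the other 122 the median r was 0.31 (0.10 to 0.46), close to the 0.25 of the 656 other probes outside the 260 brightest. These correlations are across probes that share the same arrays and scaling, and the narrower range of intensities outside the 260 brightest by itself lowers r. The median SD within a group was 0.29 on the log2 scale for these 31, also 0.29 for the 37 next in brightness, 0.47 for the following 40, and 0.60 for the 45 late-registered probes among the 260 dimmest of the table.

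Metformin and control were compared by a single limma model over all 1038 fully measured probes. No late-registered probe passed the threshold of 0.05 after Benjamini-Hochberg adjustment over the 1038 (0 of 153, with a background of 0% of all probes). At an unadjusted p under 0.05 there were 7 of 153 (4.58%), 3 higher and 4 lower. Over all probes tested the share was 2.70%, with 1.64% higher and 1.06% lower. None of the 7 was among the 519 brighter probes of the table, and 4 were among the 260 dimmest. Dimness was not particular to this set. Of the 28 probes of the whole table with such a p, 20 fell in the dimmest 260. The brightest 260 held 0 of the 28, and the 259 next in brightness held 2. The late-registered count was 4 without control replicate 1 or without metformin replicate 2, where 2.22% and 2.41% of all probes passed. It was 11 without metformin replicate 1 or without control replicate 2, where 3.95% and 4.24% of all probes passed. The metformin and control values did not overlap for 11 of 153 (7.19%), 6 higher and 5 lower. This was close to the 7.61% of all probes, of which 4.43% were higher and 3.18% lower. Means differed by over 2-fold for 2 of 153 (1.31%), both lower with metformin, against 0.771% of all probes.

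As a set the late-registered probes were centred near 0. Their median log2 difference, metformin minus control, was -0.04, against 0.03 over all 1038 probes, and 64 of 153 (41.8%) had a difference above 0, against 52.9% of all probes. The median was 0.02 without metformin replicate 1, so its sign rests on that array. Over all 1038 probes the median also rose without that array, to 0.07. By brightness, the median difference was 0.06 over the 31 late-registered probes among the 260 brightest, against 0.10 over all 260. It was -0.15 over the 45 among the 260 dimmest, against -0.01 over all 260.

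**Figure D4:**
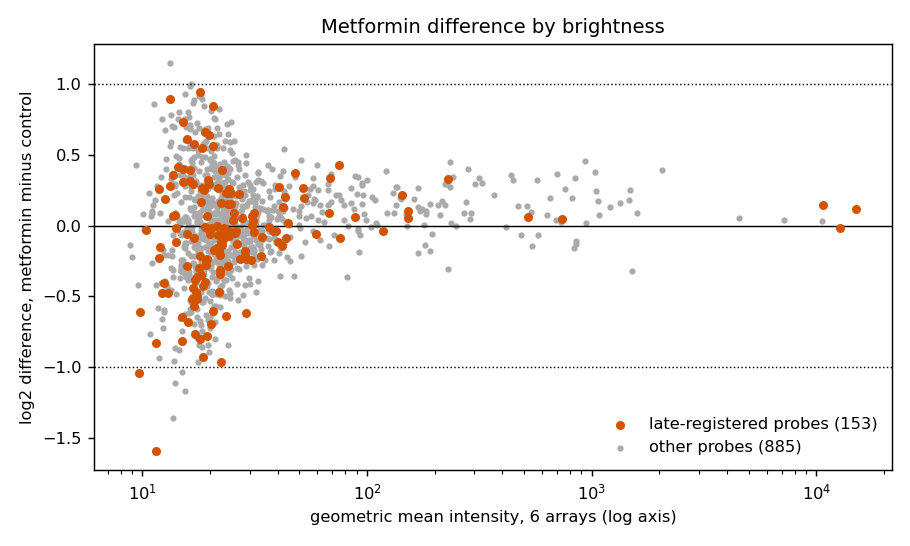
Log2 difference (metformin minus control) against geometric mean intensity over 6 arrays (log axis) for 153 late-registered probes (orange) and 885 others (grey); dotted lines mark 2-fold changes. Differences fan out at the dim end, where both late-registered probes past 2-fold lie, and the 3 brightest lie between -0.02 and 0.14.

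For bright late-registered probes the fit set limits on the size of the difference between these metformin and control arrays. The intervals, like the p-values, refer to the spread between arrays, which may be technical, so they set no limit across separate cultures. For all of the 10 brightest, the 95% interval of the limma fit, not adjusted for the number of probes, excluded a 2-fold change in either direction. The same held for 28 of the 31 among the 260 brightest (90.3%, against 88.1% of all 260) and for 34 of the 37 next in brightness (91.9%, against 76.4% of all probes there). It held for 3 of the 45 among the 260 dimmest (6.67%, against 8.46%) and for 81 of all 153 (52.9%), against 54.9% of all probes. MIMAT0015041 differed by 0.12 on the log2 scale (SE 0.25, interval -0.45 to 0.69). MIMAT0016916 differed by -0.02 (SE 0.23, interval -0.55 to 0.52). MIMAT0016915 differed by 0.14 (SE 0.24, interval -0.41 to 0.70). In fold terms the 3 intervals together run from 0.683 to 1.62. The largest difference among the 10 was that of MIMAT0015052, at 0.33 (SE 0.27, interval -0.31 to 0.96). All 10 had a limma adjusted p of 0.991, and none had groups that did not overlap. Among the 31 the groups were apart for a single late-registered probe (3.23%, against 6.15% of all 260), MIMAT0015028, singled out after its values were seen. It read 63.3, 47.9 and 52.8 with metformin, against 43.9, 40.9 and 40.9 in control, a difference of 0.37 (SE 0.22).

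The 10 brightest late-registered probes leaned towards metformin, as most of the 260 brightest did. The 31 late-registered probes among the 260 leaned that way less often. Of the 10 brightest, 8 had a difference above 0, with a median of 0.08, against 71.5% of the 260 brightest probes of the table, with a median of 0.10. The lean depended on scaling. With quantile normalization the differences of MIMAT0015080, MIMAT0015055, MIMAT0016907 and MIMAT0015072 fell below 0, and the others of the 10 kept their sign. The median over all 1038 probes was then -0.006, against 0.03 in the reported fit. With each array left out in turn, between 4 and 10 of the 10 were above 0. The count was 4 without metformin replicate 2 (median -0.02) and 5 without control replicate 2 (median 0.02), and the share over the 260 brightest was then 56.9% and 59.2%. Metformin replicate 2 held the highest value for 9 of the 10, so leaving it out lowers their differences by construction. Metformin replicate 2 also held the highest value for 18 of the 31 late-registered probes among the 260 brightest (58.1%), against 45.4% of the 229 other probes there. Of the 31, 19 had a difference above 0 (61.3%, median 0.06), against 167 of the 229 (72.9%, median 0.10). Without metformin replicate 2 it was 12 of the 31 (median -0.04) and 136 of the 229 (median 0.04).

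**Figure D5:**
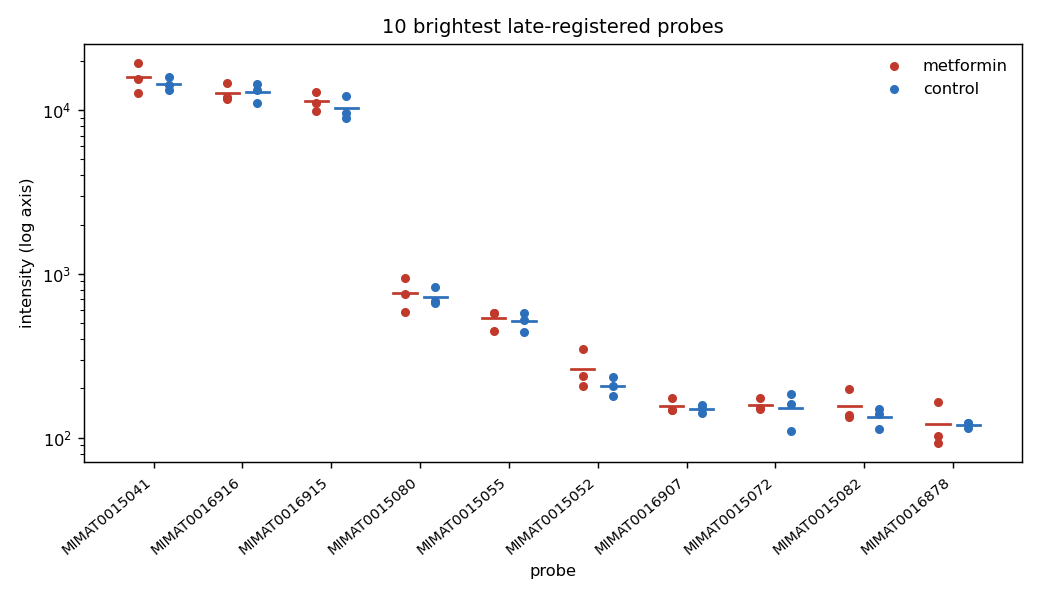
Intensity (log axis) of the 10 brightest late-registered probes on each metformin array (red) and control array (blue); points are arrays and horizontal bars group means (n = 3 each). The groups overlap for all 10, and metformin replicate 2 is the highest point for 9 of them.

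The late-registered probes that came nearest to the threshold, either way, were dim. MIMAT0015037 read 6.80, 6.60 and 6.40 with metformin, against 22.6, 17.3 and 20.1 in control. All 3 metformin values were within 1.36 times the lowest value of their array, whereas the control values were between 3.04 and 3.85 times the lowest of theirs. On the log2 scale this was -1.59 (SE 0.22, interval -2.10 to -1.08). The limma adjusted p of 0.107 was the lowest of the table, but it depended on the variance model. It was 0.989 with a robust limma variance model that follows brightness, and 0.961 with a replicate block. The lowest among the alternatives was 0.096, with arrays centred on their 75th percentile. MIMAT0015026, the dimmest late-registered probe described above, differed by -1.04 (SE 0.41), and its groups overlapped.

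In the other direction MIMAT0015044 read 20.7, 18 and 16.1 with metformin, against 12.3, 9.0 and 8.40 in control, a difference of 0.90 (SE 0.25). MIMAT0015031 read 25.8, 21.4 and 28.1 with metformin, against 14.8, 16.9 and 8.70 in control, a difference of 0.94 (SE 0.30). Groups were apart for both, but the limma adjusted p was 0.991 for each, as for MIMAT0015026. All 4 probes, picked for small p, were among the 260 dimmest, at brightness ranks from 785 to 1034 of 1038. For the 215 probes among the 260 dimmest that are not late-registered, differences ran from -1.36 to 1.15. Of the 4, only MIMAT0015037 lay outside that range.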

How the data were processed

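Total RNA was labelled with Hy5, per the labels' protocols. The deposited table holds intensities on a linear scale, processed by the authors before deposit, as judged from the values themselves. The scanner, the background correction, the scaling and what left cells empty are all not given in the sources used here. Columns were assigned to samples by accession. Intensities were taken to log2 with no pseudocount and fitted with limma 3.58.1 in R 4.3.3 (lmFit, eBayes, two-sided, Benjamini-Hochberg over all 1038 probes, no covariates). The code was tried on simulated data, drawn as independent normal values with the fitted variances, without a floor or empty cells. Those runs do not test the fit for probes near the floor. Array percentiles used every probe with a value on that array. With 3 arrays a group, the number of arrays limits the precision. The members and lists were chosen with earlier results of these data known. Probes described are the 10 brightest, the 2 with the smallest p in each direction (the rule's 5 were cut to 2, as no names are paired), the 3 dimmest, those with 3 values or fewer, and 1 chosen later. The parts of the rule that need names or sequences (shared seeds with bright probes, miR-3189, miR-3151, miR-3120) could not be applied. Alternatives were other scalings, a pseudocount of 1, other filters, variance models, a replicate block and leaving out each array. Replicate numbers were not taken as pairs.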

Additional observations from a re-analysis of the deposited data

How the results depend on the processing

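All 15 alternatives gave 0 probes past the threshold over the table and 0 late-registered ones, as in the reported fit, and none of the 234 refits of the 16 named probes passed. The adjusted p of MIMAT0015037 ranged from 0.096 (arrays centred on the 75th percentile) to 0.989 (robust variance model that follows brightness). The 7 late-registered probes at an unadjusted p under 0.05 became 0 of the 68 late-registered ones among the 519 brighter probes (1.93% of the 519), and 4 to 11 with single arrays left out (2.22% to 4.24% of all probes). Their median difference of -0.04 was -0.0034 among the 519, against 0.053 over all 519. With single arrays left out it was -0.070 to 0.018, against -0.0091 to 0.066 over all probes. With percentiles over probes measured on every array, 16.9% of late-registered values were above the 75th percentile, 35.8% below the 25th, and the ratio to the array median was 0.892; these sets leave out mostly dim probes. Leaving out 1 array kept the 3 measures within 18.5% to 19.9%, 31.4% to 33.0% and 0.918 to 0.937. With the replicate block, 5 late-registered probes (3.27%) and 2.31% of all probes had an unadjusted p under 0.05; deviations of same-numbered arrays correlated at 0.01, -0.27 and -0.02. Quantile normalization turned the difference of MIMAT0015080 to -0.10, of MIMAT0015055 to -0.015, of MIMAT0016907 to -0.10 and of MIMAT0015072 to -0.018. Leaving out 1 array also turned signs, with ranges of -0.038 to 0.27 for MIMAT0015041, -0.12 to 0.066 for MIMAT0016916, -0.12 to 0.23 for MIMAT0015080, -0.050 to 0.18 for MIMAT0015055, -0.11 to 0.26 for MIMAT0015072, -0.031 to 0.096 for MIMAT0016907, -0.29 to 0.12 for MIMAT0016878 and -0.57 to 0.30 for MIMAT0016853. The cause was not tested.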
